A study of Canis lupus familiaris with 24 samples.

Results

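The injured and the control lung were compared at 1 site, the nondependent part of the apex, the side of the lung's tip that lay uppermost under gravity. The comparison used 6 of the 24 arrays of the study, 1 from each lung of 3 mongrel dogs, and was described over the 19402 of 22283 probe sets that were called Present on at least 2 of these 6 arrays. In each dog the left lung was lavaged with warm saline, 20 ml/kg repeated 4 times, and is called injured here. The right lung of the same animal was not lavaged and is the control. Both lungs were ventilated separately through a double-lumen tube at 25 breaths/min for 5 h, and 5 cmH2O of positive end-expiratory pressure was added to the control lung alone, so lavage, side and pressure cannot be told apart in any difference given below. All animals were anaesthetised with pentobarbital and relaxed with pancuronium; their ages were not stated. There were no untreated or unventilated dogs, and each group of 3 arrays holds 1 piece of lung per dog.

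Saline lavage is a standard way of making a mild lung injury. It washes surfactant, the lipid and protein film made by alveolar type 2 cells, out of the air spaces, after which alveoli close more easily and are strained when ventilation reopens them. Gravity makes this uneven: dependent lung is compressed and tends to collapse, whereas nondependent lung keeps more of its air. Responses known from ventilated, injured lung include NF-kB-driven cytokines and chemokines, immediate early genes induced by stretch, metallothioneins (small metal-binding proteins induced by stress), matrix genes such as HAS2 and VCAN, and a loss of surfactant proteins.

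The RNA was read on a human array, the Affymetrix HG-U133A, and the values below are the deposited signal intensities. Differences are log2 of the injured minus log2 of the control signal within a dog, so that 1 is a signal 2-fold as high. The tissue was lung by its defining markers. SFTPC, a surfactant protein specific to type 2 cells, had signals of 3254, 3191 and 2900 in the control pieces of dogs 1, 2 and 3 and of 2490, 3021 and 1724 in the injured pieces, and SFTPD, AGER and CAV1 were also called Present on all 6 arrays. Present calls made up 60.8 to 80.1% of an array. The percentage was higher in the injured lung of all 3 dogs (67.6 against 60.8 in dog 1, 80.1 against 72.8 in dog 2 and 73.3 against 71.8 in dog 3; mean difference 5.19 ± 3.23 percentage points, SD, n = 3 pairs), with an exact two-sided sign-flip permutation p of 0.25, the smallest that 3 pairs allow. For GAPDH, the log2 signal at the 3′ end less that at the 5′ end, which grows as RNA is degraded, was lower in the injured lung of all 3 dogs by 0.24, 0.15 and 0.22. That of ACTB was lower by 1.52, 0.03 and 1.19. The 2 arrays of dog 3 were the least alike, with a correlation of 0.765 between its lungs, against 0.816 in dog 1 and 0.886 in dog 2. Its control array had the lowest median correlation with the other arrays of the study among these 6 (0.771), whereas its injured array, at 0.792, lay within the range of the other 4 (0.789 to 0.831). The highest signal was 22155 on the injured array of dog 3 and 20465 on the control array of dog 1, and 15373 or less on the other 4. List medians whose sign turned when dog 3 was left out are given both ways. The part of RNA quality or of these arrays in the differences was not tested beyond the fits described in the closing section.

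At this site no probe set was called as differing between the lungs. In the limma fit, 0 of 19402 probe sets (0% called) had an adjusted p under 0.05, and the smallest adjusted p was 0.502. At an unadjusted p under 0.05 there were 1035 probe sets (5.33% of those tested), of which 669 (3.45%) were higher and 366 (1.89%) lower in the injured lung. limma on the 6 arrays alone also gave 0 calls and had 615 at an unadjusted p under 0.05. The precision sets what could be seen: the median SE of a difference was 0.36, and the median half-width of its unadjusted 95% confidence interval was 0.74. To pass the adjusted threshold, a typical probe set needed a change larger than that, so 0 calls do not exclude sizeable changes. In the same fit, the other sites gave 81 calls (0.417%) at the nondependent base and 0 at the dependent apex and dependent base.

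The 3 dogs did not share a pattern of differences at this site. Across the 19402 probe sets, the within-dog difference of dog 1 had a Pearson correlation of -0.02 with that of dog 2 and of -0.02 with that of dog 3, and dogs 2 and 3 had a correlation of -0.07. Among the 4851 brightest probe sets, where the signal is least affected by background, the correlations were -0.01, -0.05 and -0.17. The corresponding values at the nondependent base were 0.35, 0.37 and 0.45. These describe probe sets on shared arrays, which are not independent replicates. The difference had the same direction in all 3 dogs for 4407 probe sets, which is 22.7% of those tested, against 31.6% at the nondependent base, 28.03% at the dependent apex and 27.5% at the dependent base. For single genes, using the brightest tested probe set of each of 11011 gene symbols, a difference above 1 was seen in 1149 genes in dog 3, in 858 in dog 1 and in 625 in dog 2. It was seen in all 3 dogs for 9 genes, and a difference below -1 in all 3 dogs for 8.

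**Figure D1:**
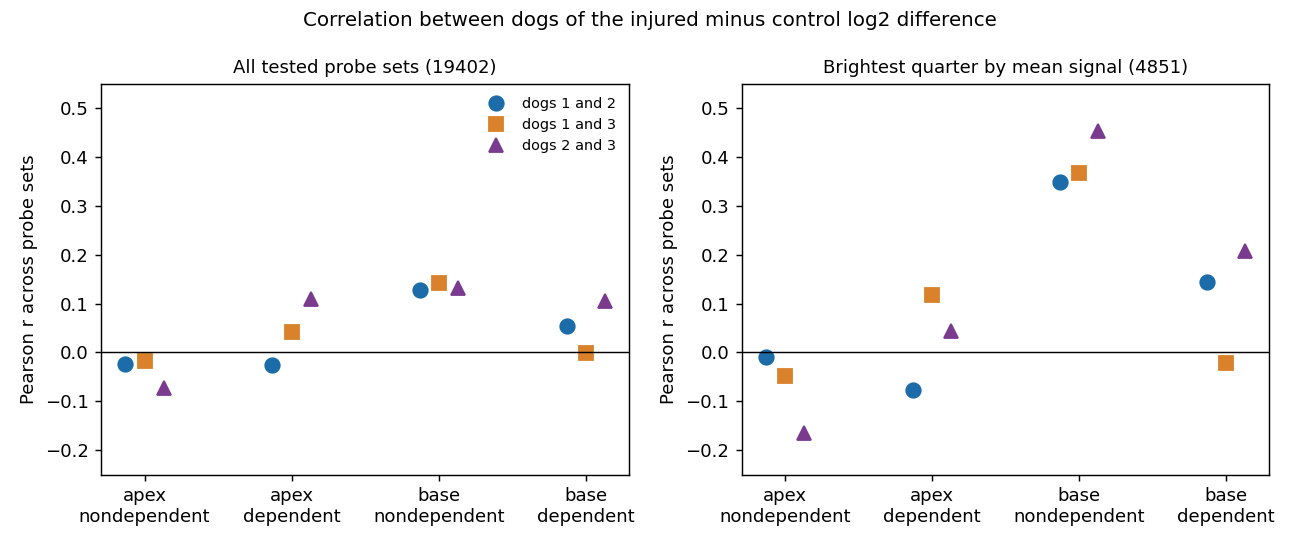
Pearson correlation across probe sets of the injured minus control log2 difference between each pair of dogs (y axis) at the 4 sites (x axis), for all 19402 tested probe sets (left) and the brightest 4851 (right). Each point is a pair of dogs; at the apex nondependent site all points lie below 0, between -0.02 and -0.07 on the left and -0.01 and -0.17 on the right, and at the base nondependent site those of the brightest probe sets lie between 0.35 and 0.45.

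Among the 1309 genes that were higher in the injured lung of every dog (11.9% of all genes), the 12 named by the smallest p-values were ZNF451, HMGA2, PSG2, AMBRA1, THBS4, ACAT2, SLC31A1, LINC01949, MSR1, SOS1, MUC13 and P4HB, with log2 differences between 0.84 and 1.44, unadjusted p from 0.00029 to 0.0046 and limma adjusted p of 0.640 or more. For 7 of the 12, every injured array lay above every control array (3.14% of all genes). The 12 were picked by p-value and direction on these same arrays, so a high share is built into the choice. ZNF451, a zinc finger protein that acts as a SUMO ligase, had signals of 82.7, 82.3 and 59.7 in the control lung of dogs 1 to 3 and of 129, 181 and 241 in the injured lung. The groups did not overlap, and the log2 difference was 1.27 ± 0.29 (moderated SE from the limma fit over 24 arrays, 3 pairs at this site). Every later ± value is likewise an SE from a limma fit, not from the 3 differences alone. A further probe set of ZNF451 gave 0.20. AMBRA1, an activator of autophagy, had 97.1, 33.0 and 98.5 in the control and 197, 95.6 and 303 in the injured lung. The difference was above 1 in each dog (1.02, 1.54 and 1.62), although dog 2 was low in both lungs and the groups overlapped. The other probe sets of AMBRA1 lay between -0.38 and -0.03. ACAT2, an enzyme at the start of cholesterol synthesis, had 70.5, 82.9 and 20.2 in the control and 120, 106 and 173 in the injured lung, with most of its mean difference of 1.40 ± 0.39 coming from the low control value of dog 3. MSR1, the macrophage scavenger receptor, had 81.6, 70.1 and 27.5 in the control and 170, 122 and 135 in the injured lung. Its groups did not overlap, the difference was 1.39 ± 0.41, and its other probe sets gave -0.12 to 0.38. SLC31A1, the main copper importer of the plasma membrane, had 26.9, 39.3 and 74.5 against 134, 83.2 and 92.9 (1.24 ± 0.35). P4HB, the protein disulfide isomerase that is also a subunit of collagen prolyl hydroxylase, had 27.2, 29.7 and 56.5 against 153, 42.8 and 93.9 (1.25 ± 0.39), and was highest in the injured lung of dog 1. TACR2, IFI6, CYTIP and PDC completed the 8 largest increases by the same rule, with mean differences of 1.28 to 1.41. In IFI6, an interferon-induced gene, that mean rested on dog 1 (3.86, against 0.25 and 0.11).

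Among the 1187 genes that were lower in the injured lung of every dog (10.8% of all genes), the 12 named by the smallest p-values had log2 differences between -2.20 and -0.72. NDUFV1, the subunit of respiratory complex I that binds NADH, had signals of 162, 249 and 246 in the control and 84.5, 53.9 and 95.5 in the injured lung, so that the highest injured value was below the lowest control value. Its log2 difference was -1.50 ± 0.35, with differences of -0.94, -2.21 and -1.37 in the 3 dogs (limma adjusted p = 0.640). COX6C, a small subunit of cytochrome c oxidase, had 114, 82.9 and 88.5 against 74.2, 24.3 and 52.1, again without overlap (-1.05 ± 0.35). CPS1, carbamoyl phosphate synthetase, had 174, 257 and 240 against 102, 154 and 99.9 (-0.93 ± 0.23). In CPS1 the dogs were close to each other, at -0.77, -0.74 and -1.26, but its other probe set differed in the opposite direction (1.33). SIRT5, a mitochondrial deacylase known to act on CPS1, was at -0.73 ± 0.24. CCL21, a chemokine of lymphatic endothelium that guides lymphocytes and dendritic cells, had 134.4, 123.4 and 133.4 in the control and 8.0, 63.0 and 45.6 in the injured lung. The 3 control values lay close together, every injured value was below them, and the mean difference was -2.20 ± 0.65 (limma adjusted p = 0.823), the largest decrease by the rule. SQSTM1, the autophagy receptor p62, had 384, 413 and 575 against 117, 338 and 302 (-0.98 ± 0.30). F8, coagulation factor VIII, had 204, 172 and 283 against 120, 146 and 127 (-0.72 ± 0.22). PPP1CB, a catalytic subunit of protein phosphatase 1, had a difference below -1 in each dog (-1.87, -1.95 and -1.08), while its other probe sets ranged from -1.10 to 0.82. LRRN2, UBE3B, SHLD2 and FBXW4 made up the rest of the 12, at -0.75, -0.83, -1.01 and -1.24, and FOLR3, TAF1A and CORO2A were among the largest decreases at -1.02, -1.09 and -1.18. For 9 of the 12, every injured array lay below every control array (2.67% of all genes), a share that the choice by p-value and direction on these same arrays also raises.

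**Figure D2:**
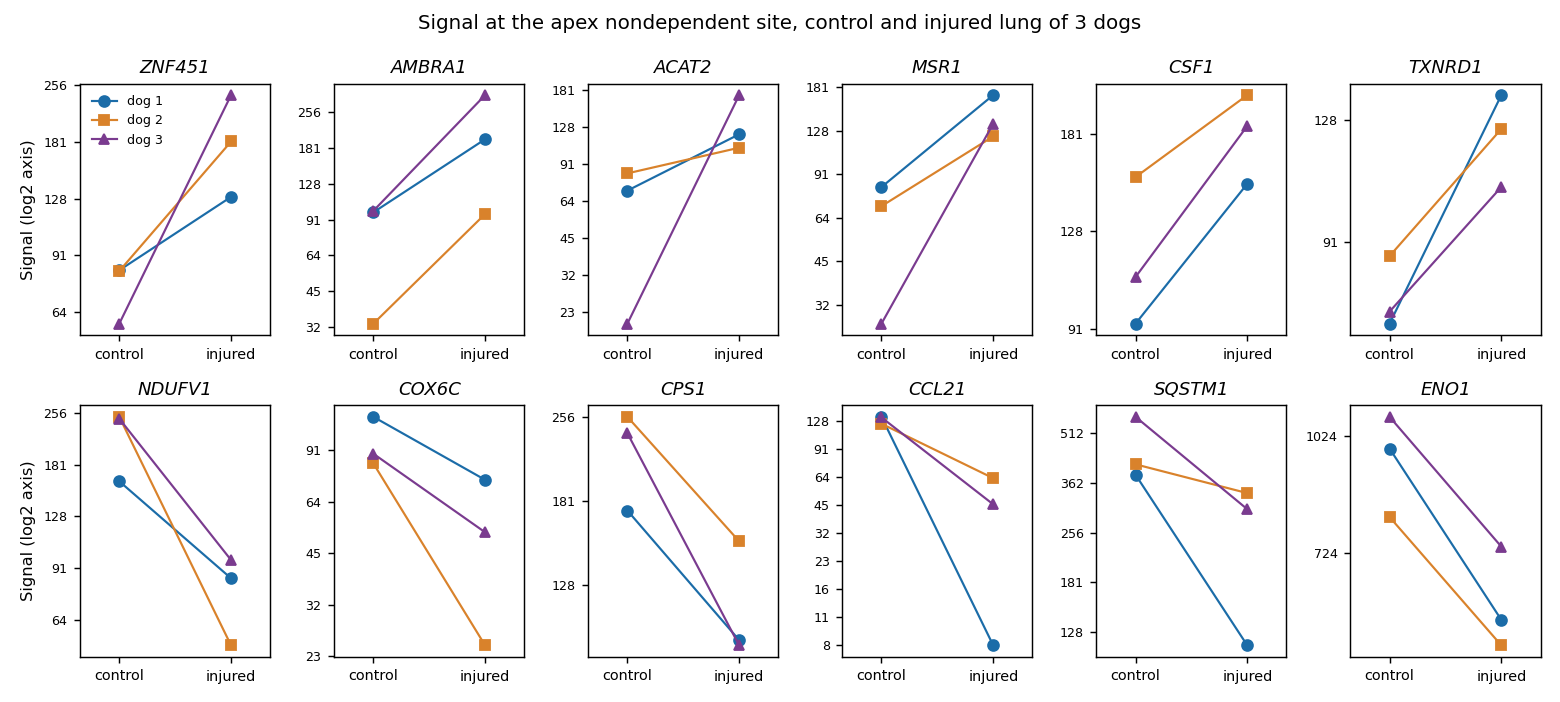
Deposited signal (y axis, log2 scale, own range in each panel) in the control and injured lung (x axis) for 12 genes, 1 line per dog. The 6 genes of the upper row were higher and the 6 of the lower row lower in the injured lung of all 3 dogs; the highest injured value of NDUFV1, 95.5, lies below its lowest control value, 162.

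More inflammatory genes were above 0 than below it, but none passed the test and the median over genes called Present on every array was near 0. Of 31 cytokines and chemokines listed, 24 had a tested probe set of their own and 14 of these were called Present on all 6 arrays. Of the 24, 16 had a higher mean in the injured lung (52.3% of all genes did), 9 were higher in all 3 dogs and 1 was lower in all 3 (11.9 and 10.8% of all genes). Some of the higher members passed the Present filter only through the injured lung. CXCL1 and CXCL5 had 2 injured and 0 control calls each, and CXCL8 and IL18 had 2 injured and 1 control. The filter thus raises these counts, and they are no result about the list. The median difference of the 24 was 0.54, against 0.02 for all 11011 genes, and the medians of dogs 1, 2 and 3 were 0.16, 0.32 and 0.50. Over the 14 members called Present on all 6 arrays the median was -0.03. At an unadjusted p under 0.05, 4 were higher and 1 lower, against 3.23 and 1.88% of all genes, and 0 had an adjusted p under 0.05. CSF1, the growth factor of macrophages, was similar in the 3 dogs. Its signals were 92.3, 155 and 109 in the control and 152, 208 and 186 in the injured lung, and its differences were 0.72, 0.42 and 0.77 (0.64 ± 0.26), although other probe sets gave -0.29 to 0.17. NAMPT, a cytokine and NAD-synthesising enzyme known to be induced in ventilator injury, had 178, 69.1 and 235 against 298, 172 and 379, higher in each dog (0.91 ± 0.58) with overlapping groups. LIF, an IL-6 family cytokine, had a mean difference of 1.08 ± 0.40, but its values in the dogs were 0.12, 0.51 and 2.61, and those of CCL8, a monocyte chemokine, were 0.21, 0.08 and 2.51. CCL4, another monocyte chemokine, likewise had -0.07, 0.79 and 2.06. In these 3 genes the control piece of dog 3 was the lowest of the control arrays and its injured piece the highest of all. IL10, an anti-inflammatory cytokine, was the member lower in all 3 dogs, with signals of 108, 124 and 245 in the control and 80.5, 102 and 106 in the injured lung (-0.64 ± 0.29). Of the early cytokines of acute lung injury, IL6 differed by -0.06 ± 0.23 and IL1B by -0.01 ± 0.31. TNF differed by 0.33 ± 0.26, with -0.08, 0.23 and 0.85 in dogs 1 to 3.

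Of 19 NF-kB feedback and adhesion genes, 14 had a higher mean in the injured lung (52.3% of all genes did). Of the 19, 6 were higher in all 3 dogs and 0 were lower in all 3 (11.9 and 10.8% of all genes). The list's median was 0.17, with 0.06, 0.06 and 0.32 in dogs 1 to 3. NFKBIA, the inhibitor that NF-kB itself induces, had very even control signals of 1495, 1430 and 1446 and injured signals of 1948, 1609 and 2054. NFKB1, a subunit of the factor, had 273, 243 and 243 against 358, 293 and 346. Both were without overlap between the groups, as 3.14% of all genes were upward, at 0.35 ± 0.26 and 0.39 ± 0.24. ICAM2, an adhesion molecule of resting endothelium, had 77.8, 76.3 and 92.2 against 108, 112 and 181 (0.67 ± 0.31), whereas ICAM1, the inducible one, differed by -0.06 ± 0.20. PTGS2, the inducible cyclooxygenase, was lower in each dog (-0.48, -0.65 and -0.80), but was called Present on only 1 injured and 2 control arrays.

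Markers of immune cells differed unevenly. In bulk tissue, fewer cells of a type and less RNA per cell cannot be told apart. Of 18 macrophage and monocyte markers measured, 13 had a higher mean (52.3% of all genes did), 7 were higher in all 3 dogs and 3 lower in all 3 (11.9 and 10.8% of all genes). Their median was 0.15, with 0.17, 0.14 and 0.15 in dogs 1 to 3. The list's summed signal was higher in the injured lung of each dog (3426 against 2852, 3374 against 3135 and 3111 against 2740). CD86 alone made up 382 of the 574 units by which the sum was higher in dog 1, 31.0 of 238.5 in dog 2 and 249.5 of 370.6 in dog 3. Besides MSR1, AIF1, which encodes a cytoskeletal protein of macrophages, had signals of 62.3, 86.5 and 57.3 in the control and 103, 117 and 122 in the injured lung, without overlap (0.75 ± 0.31). CD86, a co-stimulatory ligand, had 355, 738 and 148 against 738, 769 and 397 (0.85 ± 0.35), and CSF1R, the receptor of CSF1, had 107, 62.6 and 56.2 against 142, 64.0 and 165 (0.67 ± 0.34). The 3 markers lower in all 3 dogs, named after their values were seen like the pair that follows them, were MARCO, a scavenger receptor of alveolar macrophages (-0.10, -0.64 and -1.11; mean -0.62 ± 0.35), TYROBP, a signalling adaptor of myeloid cells (-0.26 ± 0.27), and VSIG4, a complement receptor of resident macrophages (-0.18 ± 0.24). ITGAX, an integrin of alveolar macrophages and dendritic cells, and CD14, the co-receptor for endotoxin, had means of -0.47 ± 0.29 and -0.34 ± 0.42, with -1.40 and -1.28 in dog 3. Of 15 neutrophil markers, 9 had a higher mean, 1 was higher and 1 lower in all 3 dogs, and the summed signal was 2243, 1755 and 2070 in the control against 2228, 1793 and 1679 in the injured lung. FCGR3B, a neutrophil Fc receptor in humans, differed by 0.25, 0.54 and 1.30. CAMP, the cathelicidin of neutrophil granules, owed its mean of 2.18 to a control signal of 0.6 in dog 1, where the other 5 arrays had 49.9 to 56.2. The T and NK cell markers had medians of 0.31, -0.23 and 0.25 in dogs 1 to 3 (16 of 21 with a higher mean; median 0.12, and -0.02 without dog 3), and KLRB1, an NK cell receptor, had 0.31, 0.35 and 2.58. The B and plasma cell markers had medians of -0.12, 0.08 and 0.57 (10 of 13; median 0.15, and -0.10 without dog 3), and JCHAIN, which links IgA and IgM, differed by -5.85 in dog 3, from 283 in the control to 4.9 in the injured piece. No tested probe set of any kind had a signal of 0 on these 6 arrays, so the lack of zeros among immune markers tells nothing about the cells. Of the neutrophil markers, 6 of 15 were called Present on all 6 arrays, and of the T and NK cell markers 5 of 21.

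Some genes of the alveolar epithelium differed in opposite directions between the dogs, and others had the same direction in each. Of 15 type 2 cell markers, 5 had a higher mean in the injured lung, and the medians of dogs 1 to 3 were 0.05, -0.19 and -0.62. Of 12 type 1 cell markers, 5 had a higher mean, with medians of -0.33, 0.06 and -0.90 and a median of -0.13, which was 0.11 without dog 3. In each of these lists 1 marker was higher and 2 were lower in all 3 dogs (11.9 and 10.8% of all genes). The type 1 markers lower in all 3 were CAV1 (-0.28, -0.17 and -0.61) and CLIC3, and the one higher was CLIC5. AGER, the receptor that type 1 cells carry in large amounts, had signals of 469, 1916 and 870 in the control and 1898, 1313 and 164 in the injured lung. It was thus higher by 2.02 in dog 1, lower by 0.55 in dog 2 and lower by 2.40 in dog 3, and its mean of -0.31 ± 0.91 describes none of them. CLDN18, a tight junction protein of alveolar epithelium, had 70.2, 275 and 235 against 391, 537 and 16.3, with differences of 2.48, 0.97 and -3.85. Without dog 3, CLDN18 was higher by 1.72 and AGER by 0.74. Among the secretory genes, CTSH, a protease that processes surfactant protein, had 200, 220 and 206 in the control and 158, 161 and 108 in the injured lung, lower in each dog and without overlap (-0.57 ± 0.23). LAMP3, a membrane protein of lamellar bodies, the organelles that store surfactant, had 191, 199 and 67.2 against 193, 465 and 215 (0.97 ± 0.38), and was level in dog 1. SFTPC was lower in each dog by 0.39, 0.08 and 0.75, SFTPD differed by 0.07, -0.19 and -0.76, and SFTPB, which is needed to spread the film, by -0.90, -0.67 and 0.79. None of these passed the test.

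In the other lists of cell types, the endothelium markers had 14 of 22 members with a higher mean and a median of 0.15 (0.10, 0.30 and 0.16 in the dogs), which was -0.13 over members called Present on all 6 arrays. SOX18, a transcription factor of endothelium, had low signals throughout, 5.0, 14.7 and 26.3 in the control and 31.4, 59.3 and 46.5 in the injured lung, without overlap (1.83 ± 0.60). FLT4, the receptor of lymphatic growth factors, differed by almost the same amount in each dog (0.94, 0.91 and 0.96) at signals of 14.1 to 67.5, but was called Present on only 1 control array. RAMP2, the partner of the adrenomedullin receptor, had 1027, 882 and 392 against 594, 608 and 242, a difference of -0.79, -0.54 and -0.70 (mean -0.67 ± 0.41). Smooth muscle and fibroblast markers had 7 of 21 members with a higher mean and a median of -0.13, but the medians of dogs 1 to 3 were -0.02, 0.14 and -0.38, and the median was 0.08 without dog 3. The medians of the remaining cell lists were -0.08 for red cell and platelet markers (4 of 11), 0.28 for airway epithelium (8 of 12), -0.19 for pleural mesothelium (2 of 8) and 0.04 for airway cartilage and glands (7 of 12; -0.15 without dog 3). MATN1, a cartilage matrix protein, had 199, 219 and 106 against 111, 52.4 and 132.6. The airway epithelium median changed sign between dogs, at 0.44, -0.38 and 0.19, and was -0.22 over members called Present on all 6 arrays; the summed signal of its markers was 2671, 2689 and 2506 in the control against 2356, 2252 and 3235 in the injured lung. The part of a differing tissue makeup of the pieces in these values was not tested.

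Most stress and metabolic lists had medians near 0. In oxidative phosphorylation, 13 of 27 genes had a higher mean (52.3% of all genes did) and the median was -0.01. In this list 0 genes were higher in all 3 dogs and 5 were lower in all 3 (11.9 and 10.8% of all genes). The 5 were NDUFV1, COX6C and, by less, UQCRC2 (-0.29), ATP5F1B (-0.11) and ATP5F1C (-0.17). In hypoxia and glycolysis, 14 of 27 had a higher mean (median 0.04). ENO1, the glycolytic enzyme enolase, had 986, 805 and 1084 against 593, 549 and 737, without overlap and nearly equal in the dogs (-0.74, -0.55 and -0.56), although its other probe sets gave 0.12 to 0.20. PFKFB4, which makes a regulator of glycolysis, had 80.3, 12.6 and 11.7 against 156, 40.7 and 60.0 (1.67 ± 0.60), with Present calls on 2 injured arrays and 1 control array. Of 17 genes of cholesterol and fatty acid synthesis, 14 had a higher mean (52.3% of all genes did), with a median of 0.24 (0.18, 0.10 and 0.49). Of the 17, 5 were higher in all 3 dogs and 0 were lower in all 3 (11.9 and 10.8% of all genes). ACLY, which makes cytosolic acetyl-CoA, had 267, 102 and 193 against 406, 180 and 240 (0.58 ± 0.34). The heat shock and unfolded protein list was level (13 of 26, median 0.04), while DNAJA1, a co-chaperone of HSP70, had 937, 783 and 339 against 1126, 1626 and 1293, without overlap (1.08 ± 0.35). TXNRD1, thioredoxin reductase, had 71.7, 86.9 and 74.2 against 137, 125 and 106, without overlap (0.66 ± 0.27), and GCLM, the regulatory subunit of the enzyme that starts glutathione synthesis, had 25.0, 96.0 and 102 against 12.9, 37.4 and 29.3 (-1.37 ± 0.47), with Present calls on 1 injured array. Both are known targets of the oxidative stress factor NRF2, and they lay in opposite directions here.

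**Figure D3:**
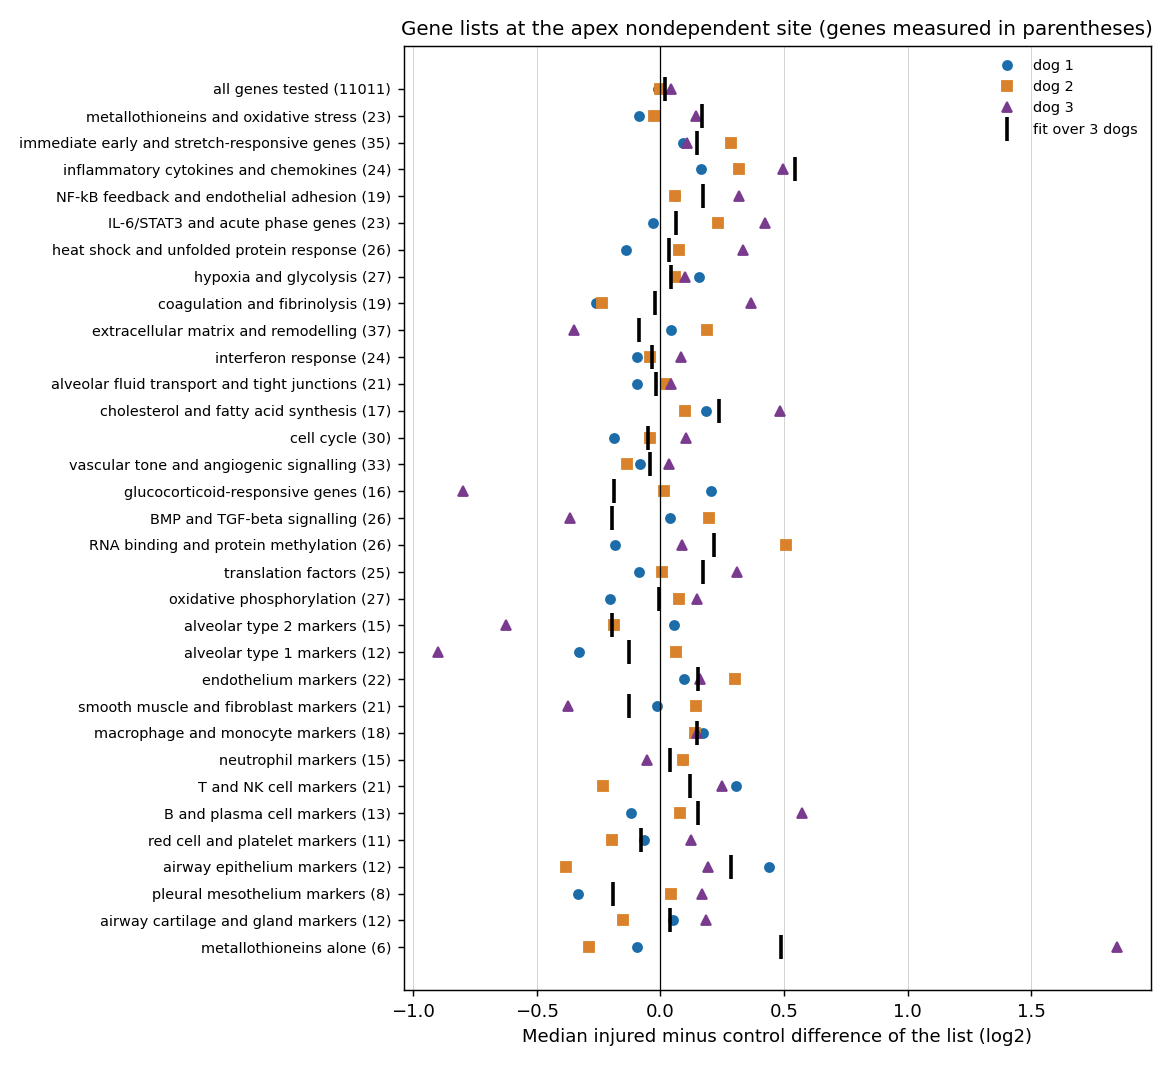
Median injured minus control log2 difference (x axis) of each gene list (y axis, genes measured in parentheses) in dogs 1, 2 and 3 (points) and in the fit over 3 dogs (bars). The cytokine median lies above 0 in every dog (0.16, 0.32 and 0.50), and that of the metallothioneins lies at 1.84 in dog 3 and just below 0 in dogs 1 and 2. Over the cytokines called Present on all 6 arrays, which are not drawn apart, the fitted median was -0.03.

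For the matrix and growth factor lists, dog 3 decided the sign. Of 37 matrix and remodelling genes, 15 had a higher mean and the median was -0.09, but the medians of dogs 1 to 3 were 0.04, 0.19 and -0.35, and the median without dog 3 was 0.16. VCAN, the proteoglycan versican, had 168, 119 and 108 in the control and 267, 141 and 259 in the injured lung (0.72 ± 0.31), and TGFBI, a matrix protein induced by TGF-beta, had 119, 121 and 88.5 against 175, 143 and 229, without overlap (0.72 ± 0.28). HAS2, which makes hyaluronan, had 33.9, 59.6 and 131 against 37.4, 102 and 244 (0.61 ± 0.66). Of 26 genes of BMP and TGF-beta signalling, 9 had a higher mean, and 6 were lower and 1 higher in all 3 dogs (10.8 and 11.9% of all genes). Their median was -0.20, with 0.04, 0.20 and -0.37 in the dogs and 0.13 without dog 3. TGFBR3, the co-receptor betaglycan, had 171, 128 and 304 against 99.5, 114 and 126, without overlap (-0.74 ± 0.26), and SMAD6, which inhibits BMP signals, had 577, 994 and 526 against 566, 672 and 176 (-0.72 ± 0.29). In coagulation and fibrinolysis 9 of 19 had a higher mean, and 4 were lower and 1 higher in all 3 dogs (10.8 and 11.9% of all genes). The median of this list was -0.02, with -0.26, -0.24 and 0.37 in dogs 1 to 3 and -0.28 without dog 3. The medians of the other lists were 0.15 for immediate early and stretch-responsive genes (24 of 35 with a higher mean), 0.06 for IL-6, STAT3 and acute phase genes (13 of 23), -0.03 for the interferon response (11 of 24), -0.02 for fluid transport and tight junctions (10 of 21), -0.05 for the cell cycle (13 of 30) and -0.04 for vascular tone and angiogenesis (13 of 33; 0.00016 without dog 3). The glucocorticoid-responsive genes (6 of 16) had medians of 0.20, 0.01 and -0.80 in dogs 1 to 3, and their median of -0.19 was 0.09 without dog 3. Within the cell cycle list, TYMS, thymidylate synthase, differed by 1.09 ± 0.39, but was level in dog 1 (-0.01, 1.04 and 2.25 in dogs 1 to 3). BIRC5, the mitotic protein survivin, differed by -0.58 ± 0.27 (-1.02, -0.56 and -0.17). The immediate early factor FOS had 1329, 967 and 1193 against 4162, 2177 and 608, higher by 1.65 and 1.17 in dogs 1 and 2 and lower by 0.97 in dog 3, and EGR1 ran the same way with 0.75, 0.51 and -1.02. STAT3, the factor downstream of IL-6, was level in dogs 1 and 2 (0.01 and 0.17) and higher in dog 3 (2.01).

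For the metallothioneins, dog 3 decided the mean. MT2A had signals of 1189, 808 and 838 in the control lung and of 1074, 705 and 4487 in the injured lung, so that dogs 1 and 2 were level (-0.15 and -0.20) and dog 3 was higher by 2.42. MT1X had 3321, 2320 and 2262 against 2844, 1575 and 10032, and MT1F had 506, 527 and 768 against 495, 554 and 2457. The 6 metallothioneins measured had medians of -0.09, -0.29 and 1.84 in dogs 1 to 3, and 6 of 6 were higher in dog 3. Metallothionein sequences are nearly alike, so that these probe sets may share RNA and are not independent. The matrix and clotting protein THBS1 had 849, 729 and 918 against 464, 1046 and 4371, again with its one large increase in dog 3 (-0.87, 0.52 and 2.25). At the nondependent base, MT2A was higher in every dog, by 3.02, 3.64 and 2.72. The whole list of metallothioneins and oxidative stress genes had a median of 0.17 (17 of 23 with a higher mean), and of -0.09 without dog 3.

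The design also asks whether the injured lung differed from the control in another way here than at the other sites. Set against the mean of the other 3 sites, 0 of 19402 probe sets had an adjusted p under 0.05 (smallest 0.690; 986, or 5.08%, at an unadjusted p under 0.05). Against the dependent apex there were also 0 (757, or 3.9%, at an unadjusted p under 0.05), and against the nondependent base 0 (smallest adjusted p 0.318; 1395, or 7.19%). Among the genes of smallest p in the first of these were MPPE1, a phosphodiesterase of glycolipid anchors, and SLC31A2, a relative of the copper importer. MPPE1 had 1442, 556 and 1954 in the control and 330, 184 and 131 in the injured lung, -2.54 ± 0.47 here, and a difference from the other sites of -2.53 ± 0.55 (limma adjusted p = 0.690). It had the smallest adjusted p of all genes in the comparison of the lungs (0.502), but was called Present on only 2 arrays of each group. SLC31A2 had 104, 93.4 and 77.0 against 156, 198 and 279 (1.18 ± 0.28), and differed from the other sites by 1.42 ± 0.32. NDUFV1 and CPS1 differed from the mean of the other sites by -1.36 ± 0.41 and -0.95 ± 0.26, and SHLD2, a DNA repair factor that was higher at the other 3 sites in every dog, by -1.64 ± 0.39 (adjusted p = 0.690). Between the nondependent apex and base, the differences of HAS2 at the base were 4.70, 4.61 and 3.01 against 0.14, 0.78 and 0.90 at the apex (apex minus base -3.50 ± 0.94, limma adjusted p = 0.381). EIF4E, the cap-binding translation factor, differed by -2.36 ± 0.47 between these sites, MT2A by -2.43 ± 0.62 and MSN, the membrane linker moesin, by -2.25 ± 0.52, each with an adjusted p of 0.318. MSN was lower in each dog at the apex (-1.09, -0.48 and -1.18) and higher in each dog at the base (1.55, 2.14 and 0.32), and was called Present on 1 array of each group at the apex.

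**Figure D4:**
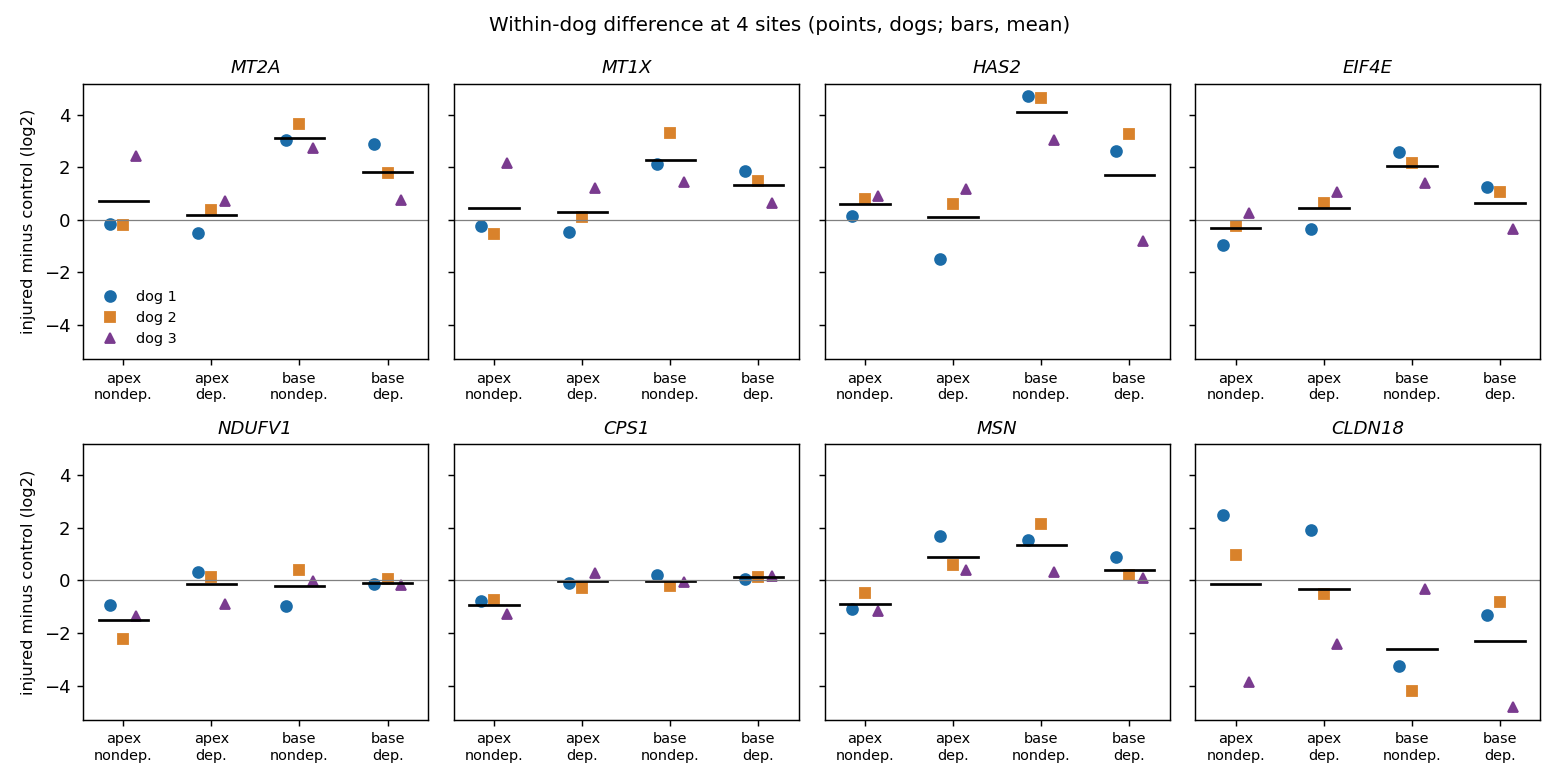
Within-dog injured minus control log2 difference (y axis) of 8 genes at the 4 sites (x axis); points are dogs and bars the mean of 3. MT2A and HAS2 lie between 2.72 and 4.70 in all dogs at the base nondependent site. Of the points of MT2A and HAS2 at the apex nondependent site, only MT2A of dog 3, at 2.42, lies above 1.

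Whether any gene was called between these 2 nondependent sites depended on arrays of dog 3. Without its 8 arrays, limma called 27 probe sets as differing between the apex and the base in the nondependent parts, 16 with a lower and 11 with a higher injured minus control difference at the apex. The genes named from these 27 were chosen after their values were seen. They included MT2A (-0.17 at the apex against 3.33 at the base, difference -3.50 ± 0.47, adjusted p = 0.0152), EIF4E (-0.59 against 2.37, adjusted p = 0.021), the translation factors EIF3I and BZW2 (-0.45 against 1.64 and -0.61 against 1.97, adjusted p = 0.0436 and 0.0142) and MSN (-0.78 against 1.85, adjusted p = 0.0495). In the other direction were CLDN18 (1.72 against -3.73, adjusted p = 0.0436) and TCF21, a transcription factor of lung mesenchyme (0.86 against -2.28, adjusted p = 0.0436). With all dogs the adjusted p of EIF4E, EIF3I, BZW2, MSN and MT2A was 0.318, that of CLDN18 0.814 and that of TCF21 0.820. Leaving out only the 3 injured arrays of dog 3 that had the highest maximum signals of the study (22155 to 27749, the injured apex nondependent array among them) gave 5 calls, of which 4 were among the 27. EIF4E and EIF3I were among these 5, with adjusted p of 0.0376 and 0.0408. In dog 3 itself EIF4E was 0.24 at the apex against 1.40 at the base, EIF3I 0.54 against 1.05 and MSN -1.18 against 0.32, each lower at the apex as in dogs 1 and 2. BZW2 (0.80 against 0.85) and MT2A (2.42 against 2.72) were nearly level between the sites in dog 3. In dogs 1 and 2, BZW2 was -0.76 and -0.47 at the apex against 1.61 and 2.32 at the base. MT2A was -0.15 and -0.20 against 3.02 and 3.64 in these 2 dogs. CLDN18 (-3.85 against -0.34) and TCF21 (-1.39 against 1.11) ran the opposite way in dog 3 from the other two.

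The probe sets that were called at the nondependent base were then read at the apex, on other arrays of the same dogs. The 74 that were higher in the injured lung at the base had medians there of 1.85, 1.95 and 1.39 in dogs 1 to 3. At the apex the medians of these 74 were -0.25, 0.19 and 0.45, with 23, 48 and 60 of them higher in the injured lung (31.1, 64.9 and 81.1%, against 49.4, 51.6 and 52.1% of all tested probe sets). The order of the dogs was thus not that of the base. The 26 genes of RNA binding and protein methylation, of which 23 had a higher mean at the apex (52.3% of all genes did), had medians of -0.19, 0.51 and 0.09 in the dogs and a median of 0.22, against 0.77 at the base. Of these, PRMT5, an arginine methyltransferase, had 37.1, 174 and 65.8 in the control and 214, 178 and 138 in the injured lung (1.21 ± 0.40). PRMT1, the main enzyme of that kind, had 156, 799 and 583 against 320, 722 and 1711 (0.82 ± 0.38). HNRNPH1, a splicing factor, differed by 0.49, 2.33 and 0.13. The translation factors had 17 of 25 members with a higher mean and a median of 0.17 (-0.09 without dog 3), against 0.62 at the base. EIF4EBP1, which restrains EIF4E, differed by 1.83, 0.24 and 0.31 at the apex.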

How the data were processed

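Total RNA of 24 dog lung pieces was hybridised to human Affymetrix HG-U133A arrays, per the file headers. The authors deposited, for each probe set, a linear signal intensity and a detection call; their software, settings and any probe masking are not stated in the sources used. On every array the 2% trimmed mean of the deposited intensity was 149.94 or 149.95. Because human probes can match dog RNA poorly, levels were compared only within a gene; a list's summed signal weights its bright probe sets most.

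Of 22283 probe sets, 68 controls and 11 without a call were left out, and 19402 with Present calls on 2 or more of the 6 arrays were tested. The deposited intensities were log2-transformed without an offset; 2 signals of 0 on the 24 arrays were set to 0.1. limma 3.58.1 in R 4.3.3 fitted 8 groups and the dog as a block over 24 arrays, with a moderated test (intensity trend), 14 residual degrees of freedom and Benjamini-Hochberg adjustment over all 19402 at 0.05. The labels give the dog of each piece, which is why it is a block; deviations of arrays from their group means correlated at 0.239, 0.155 and 0.162 within dogs 1 to 3. P-values measure the spread between single pieces, which includes sampling of tissue, and 3 dogs limit the precision.

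Gene symbols came from the platform annotation: 16718 tested probe sets had 1 symbol, 906 several and 1778 none. Of 11011 symbols, 9851 (89.5%) were in the RefSeq gene table of dog assembly UU_Cfam_GSD_1.0. Each gene was read on its brightest tested probe set. The genes named were the 12 of smallest p in each direction among those with the same sign in 3 dogs and Present on all arrays of the higher group, the 8 largest of these in each direction that were also Present on at least 2 arrays of the lower group, up to 4 of smallest p from each list, up to 5 in each direction for each difference between sites, and a fixed set of lung injury genes. The sites, members, lists and left-out arrays were chosen with earlier results of these data known. Alternatives were the block, the 6 arrays alone, quantile normalization, an offset of 16, other filters, no trend, array weights, RNA quality covariates, leaving out each dog and leaving out 3 injured arrays of dog 3 (both apex pieces and the dependent base).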

Additional observations from a re-analysis of the deposited data

How the results depend on the processing

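The count of probe sets with an adjusted p under 0.05 between the lungs at the apex nondependent site was 0 in limma under all 14 alternatives run, with a smallest adjusted p between 0.0714 (without the 3 injured arrays of dog 3 that had the highest maximum signals) and 1.0. At an unadjusted p under 0.05 the count was 1035; it was 625 with no replicate block, 615 on the 6 arrays alone with the dog as replicate block, and 294 of the 8430 probe sets called Present on all 6 arrays, and 927 to 1226 leaving out 1 dog. The replicate block changed no call. Against the dependent apex, 1 probe set without a gene symbol was called when probe sets Present on at least 6 of 24 arrays were tested. Between the apex and base nondependent sites, 0 to 27 were called leaving out 1 dog (27 without dog 3) and 5 without those 3 arrays; the cause was not tested.

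Of the named genes' alternatives, 11 reversed the sign outside the fits without 1 dog, all for differences that had not passed the test. IL6 was 0.063 with RNA quality covariates, IL1B 0.014 after quantile normalization and 0.000563 with those covariates, and TCF21 -0.46 with them. CLDN18 was 0.070 with an offset of 16 and 0.58 with array weights. Without those 3 arrays, SFTPD was 0.0069, AGER 0.83, CLDN18 1.62, MT1X -0.18 and MT1F -0.0050. Leaving out 1 dog in turn gave ranges that crossed 0 for IL6 (-0.16 to 0.021), IL1B (-0.28 to 0.31), ICAM1 (-0.16 to 0.091), SFTPB (-0.78 to 0.059), AGER (-1.48 to 0.74), CLDN18 (-1.44 to 1.72), MT2A (-0.17 to 1.14), MT1X (-0.39 to 0.96), THBS1 (-0.17 to 1.39), EGR1 (-0.26 to 0.63), EIF4E (-0.59 to 0.0073), EIF3I (-0.45 to 0.11), TCF21 (-0.33 to 0.86), BZW2 (-0.61 to 0.17), CD14 (-0.81 to 0.14) and ITGAX (-0.79 to 0.0011). The cytokine list's median was 0.37 with an offset of 16, -0.03 over members Present on all 6 arrays and 0.34 without dog 3. In all, 22 list medians under an alternative moved by more than the spread between dogs and 412 did not.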
